A study of Mus musculus with 16 samples.

Results

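Resting genotype differences were read from the 8 vehicle libraries of the 16 in the series, 4 from Nlrx1-/- astrocytes and 4 from wild-type (WT) astrocytes, chosen by their genotype and vehicle labels alone. Astrocytes came from the brains of P6 pups, the WT of strain C57BL6J and the knockout labelled NLRX1-/-, and were selected with ACSA2 beads. They were grown for about 10 days without serum and with heparin-binding EGF, then given vehicle (water) for 24 h before polyadenylated RNA was sequenced without strand information. Each litter gave 1 vehicle library and 1 library stimulated with LPS and IFNγ, so litters were the replicates and the genotypes were unpaired. The sources do not name the deleted part of Nlrx1, and they do not state how many pups were joined in a litter's culture. Expression is given as log2 CPM, the log2 of a gene's count scaled to the size of its library, for 16707 genes.

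NLRX1 is a member of the NOD-like receptor family that carries a mitochondrial targeting sequence. It is known for restraining NF-kB and type I interferon signalling, and it has been tied to mitochondrial respiration and autophagy. Astrocytes are the glia that take up glutamate, handle water and potassium and, after injury or inflammation, turn on a reactive program marked by GFAP. Whether the knockout alters these cells before any stimulus is the question this comparison addresses. In bulk RNA, fewer cells of a type and less RNA per cell cannot be told apart, and this holds for every difference given here.

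Libraries held between 27259420 and 43752903 Salmon reads. Slc1a3, the glutamate transporter GLAST, lay between 11.05 and 11.30 log2 CPM in all 8 libraries, and Aldh1l1, a folate enzyme used to mark astrocytes, between 9.40 and 9.76. Other astrocyte markers varied more, as S100b, a calcium-binding protein, ranged from 2.58 to 5.22. All 25 astrocyte markers were measured, 23 of them lower in Nlrx1-/-, against 4 of 18 microglial markers, 14 of 15 myelin genes and 15 of 18 neuron markers. The defining microglial gene Aif1 had 0 reads in all 8 libraries. The Y-linked gene Ddx3y, an RNA helicase, was at 4.22, 3.75, 4.55 and -1.21 log2 CPM in WT litters 1 to 4 and at -3.16, -0.04, -1.03 and 5.58 in Nlrx1-/- litters 1 to 4. It was thus high in 3 WT litters and in 1 Nlrx1-/- litter, and Uty, Kdm5d and Eif2s3y had the same order of groups. Xist, the RNA of the inactive X chromosome, was at 2.27 in Nlrx1-/- litter 4 and between 9.84 and 10.58 in the other 7 libraries. Sex-linked transcripts thus differed between litters of both genotypes, and their part in the results was not tested.

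Nlrx1 itself checked the labels. It was at 4.44, 4.13, 4.11 and 4.21 log2 CPM in WT litters 1 to 4 and at 2.24, 2.96, 1.84 and 2.85 in Nlrx1-/- litters 1 to 4. The groups did not overlap, and the difference was -1.75 ± 0.24 (SE), or 3.36-fold lower in Nlrx1-/-. Salmon reads summed over the gene's RefSeq transcripts were 661, 503, 804 and 680 in WT and 173, 290, 131 and 312 in Nlrx1-/-, so transcript from the locus was still counted in every knockout litter. The gene lies at chr9:44164011-44179896 on the minus strand of GRCm39. Its adjusted p was 0.219 by limma over all genes (1.03e-08 by DESeq2).

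With limma, 0 of 16707 genes were higher (0.0%) and 0 were lower (0.0%) in Nlrx1-/- at an adjusted p under 0.05, and 0.219 was the smallest adjusted p of any gene. At an unadjusted p under 0.05, 1767 genes (10.6%) were higher and 1501 (8.98%) were lower. For 1006 genes (6.02%) all 4 Nlrx1-/- litters lay above all 4 WT litters, and for 573 (3.43%) all lay below. These counts were 2186 and 1685 without WT litter 1, 1812 and 1875 without Nlrx1-/- litter 3, and 1819 and 1177 without Nlrx1-/- litters 2 and 4. Counts of list members without those litters are to be read against them. DESeq2 on counts recovered from the CPM called 287 genes higher (1.72%) and 257 lower (1.54%) at the same threshold, and edgeR's quasi-likelihood test called 0 in each direction, with 1526 higher and 1591 lower at an unadjusted p under 0.05. Because no gene passed limma's test, the genes and groups below are described by the level in each litter, by how many members had litters that did not overlap, and by these background shares.

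Litters of Nlrx1-/- varied among themselves. On the first principal component of the 1000 most variable genes, which held 38.1% of the variance, WT litters 1 to 4 were at -3.64, -16.2, -22.1 and -25.4. Nlrx1-/- litters 1 to 4 were at 5.77, 40.4, -13.4 and 34.6. Nlrx1-/- litters 2 and 4 stood apart from the rest, while Nlrx1-/- litter 3 lay among the WT litters and WT litter 1 was the WT litter nearest to Nlrx1-/- litter 1. The genotype means differed with an exact two-sided permutation p of 0.0571 (4 against 4 litters, where the smallest p possible is 0.0286), and on the second component (17.2%) with an exact permutation p of 0.743. On that second component Nlrx1-/- litters 2 and 4 lay at opposite ends, at -25.0 and 33.4, beyond all other libraries. They were thus apart from each other as well. Root mean square distances between litters, over 13624 genes, had a median of 0.347 log2 within WT (6 pairs), 0.492 within Nlrx1-/- (6 pairs) and 0.471 between genotypes (16 pairs).

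**Figure D1:**
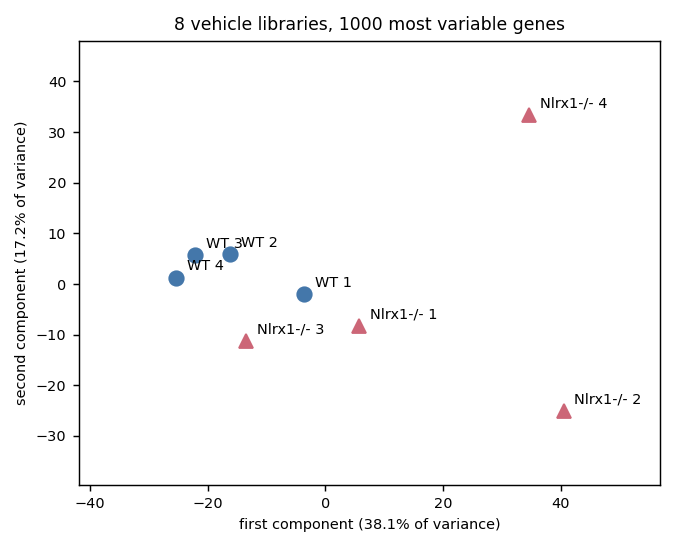
First 2 principal components of the 8 vehicle libraries (scores in log2 units, 1000 most variable genes); circles are WT litters and triangles Nlrx1-/- litters, each with its litter number. Nlrx1-/- litters 2 and 4 lie at 40.4 and 34.6 on the first component, and Nlrx1-/- litter 3 at -13.4 lies among the WT litters.

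Ciliary genes were lower in Nlrx1-/- for most members measured. Motile cilia are built on an axoneme of doublet microtubules, with outer and inner dynein arms that drive the beat, radial spokes and a central pair that control it, and nexin links that hold the doublets together. Their genes are known to be switched on by RFX factors and FOXJ1 in ependymal cells, the ciliated lining of the brain ventricles. The 5-prime part of the X-box that RFX factors bind, GTTNCCATG, was searched on both strands of the promoters (250 bases before to 50 after the annotated start, RefSeq, GRCm38.p6). It was found in 5 of 55 axoneme promoters (9.09%) and in 238 of all 12847 promoters (1.85%). The stretches below show it in capitals, from the members with an upstream match, for the 4 axoneme genes and the centriole amplification gene Deup1.
Dnali1 (chr4:125065657-125065710, minus strand): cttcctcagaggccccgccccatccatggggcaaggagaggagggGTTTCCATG
Cfap161 (chr7:83794840-83794926, minus strand): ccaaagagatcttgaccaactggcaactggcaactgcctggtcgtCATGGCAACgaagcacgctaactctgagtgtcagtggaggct
Dnah5 (chr15:28203653-28203752, plus strand): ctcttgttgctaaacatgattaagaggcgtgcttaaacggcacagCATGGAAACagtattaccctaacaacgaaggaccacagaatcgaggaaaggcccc
Cfap52 (chr11:67965643-67965703, minus strand): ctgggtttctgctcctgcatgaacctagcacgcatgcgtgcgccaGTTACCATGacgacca
Deup1 (chr9:15627874-15627973, minus strand): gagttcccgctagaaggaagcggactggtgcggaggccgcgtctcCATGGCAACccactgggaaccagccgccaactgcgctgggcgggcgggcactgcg

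Of 67 axoneme genes measured, 61 were lower and 6 higher in Nlrx1-/-, with a median log2 difference of -0.76, against 0.01 over all genes. Litters did not overlap for 14 of them (20.9% of the list, against 3.43% of all genes), all lower, and 38 were lower at an unadjusted p under 0.05 (56.7%, against 8.98%). By structure, the median was -1.42 for the 11 axonemal dynein heavy chains, -0.81 for the 6 dynein intermediate and light chains, -0.56 for the 7 dynein assembly factors, -1.14 for the 13 radial spoke and central pair genes and -0.73 for the 30 ruler, nexin and tubule inner proteins. Without Nlrx1-/- litters 2 and 4 the median of the 67 was -0.46, with 16 not overlapping, all lower. The list's mean level per litter, relative to the mean of the 8 libraries, was 0.09, 0.36, 0.85 and 0.48 in WT and -0.37, -1.03, 0.27 and -0.65 in Nlrx1-/-, so Nlrx1-/- litter 3 stood within the WT range. Without Nlrx1-/- litter 3 the median was -1.12 and 42 were lower without overlap, and without WT litter 1 it was -0.97 with 32. Of the genes shown above, Cfap161 differed by -1.67 ± 0.51, Cfap52 by -1.58 ± 0.60 and Dnah5 by -1.55 ± 0.49, each with overlap.

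Dnah9, an outer arm dynein heavy chain, was at 3.39, 3.52, 4.06 and 3.51 log2 CPM in WT and at 2.21, 1.08, 3.25 and 1.73 in Nlrx1-/- (difference -1.55 ± 0.41). All 4 Nlrx1-/- litters were below the lowest WT litter. Dnali1, an inner arm light chain, was at 2.67, 3.11, 3.33 and 3.18 against 1.47, 0.83, 2.65 and 1.57 (-1.44 ± 0.36), with litter 3 just under WT litter 1. The radial spoke head gene Rsph4a (-1.53 ± 0.53), the microtubule tether gene Cfap44 (-1.45 ± 0.41), the radial spoke gene Cfap206 (-1.55 ± 0.43) and the nexin-dynein gene Drc1 (-1.39 ± 0.45) had litters that did not overlap either. Cfap65 (-1.57 ± 0.42) and the dynein docking gene Ccdc114 (-0.69 ± 0.18) also separated the genotypes. The assembly factor Zmynd10 (-1.46 ± 0.42) and the adenylate kinase Ak7 (-1.16 ± 0.39) did not.

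Most genes of the ependymal and multiciliation list were lower too. Rfx3, a master regulator of ciliary genes, was at 6.90, 7.03, 6.98 and 7.14 log2 CPM in WT and at 6.75, 6.35, 6.69 and 6.55 in Nlrx1-/- (-0.42 ± 0.09). No Nlrx1-/- litter reached the WT range, and litter 3 was not the highest of the 4. Rfx2 (-0.38 ± 0.13) and Tekt1, a tektin of the tubule wall (-1.38 ± 0.44), had litters that did not overlap. Deup1 was at 1.25, 2.23, 2.49 and 1.89 in WT and at 0.04, -0.54, 1.59 and -0.45 in Nlrx1-/-, overlapping through litter 3 (-1.81 ± 0.50). Of the 13 ependymal and multiciliation regulators measured, 11 were lower, 3 of them without overlap, with a median of -0.49 (-0.34 without litters 2 and 4). The 3, which include the structural gene Tekt1, are 23.1% of the list, against 3.43% of all genes. Foxj1 (-0.48 ± 0.17), Mcidas (-2.3 ± 1.1), Gmnc (-2.49 ± 0.80) and Ccno (-0.92 ± 0.46) overlapped. Choroid plexus markers, from another ciliated epithelium, had a median of -0.45 over 7 measured, with 0 that did not overlap; the folate receptor Folr1 was at -1.05 ± 0.38 and transthyretin, Ttr, at -0.82 ± 0.60.

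Intraflagellar transport and BBSome genes build and sort cargo in all cilia, including the primary cilium that astrocytes carry. Of 41 measured, 34 were lower, with a median of -0.17. Among them 12 had an unadjusted p under 0.05 (29.3%, against 8.98%) and 7 were without overlap (17.1%, against 3.43%). The difference was small but the WT litters were tight, since their list levels were 0.08, 0.08, 0.09 and 0.07, against -0.04, -0.24, 0.05 and -0.09 in Nlrx1-/-. Ift81, a tubulin-binding subunit of the IFT-B train, was at 5.42, 5.51, 5.38 and 5.60 log2 CPM in WT and 5.08, 4.74, 5.23 and 4.86 in Nlrx1-/- (-0.50 ± 0.11). The IFT-A gene Wdr19 (-0.37 ± 0.10), the kinesin-2 subunit Kifap3 (-0.19 ± 0.05), the dynein-2 gene Wdr60 (-0.29 ± 0.08) and Bbs4 (-0.42 ± 0.14) were also without overlap. Without litters 2 and 4 the median was -0.08, with 8 lower and 1 higher without overlap.

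**Figure D2:**
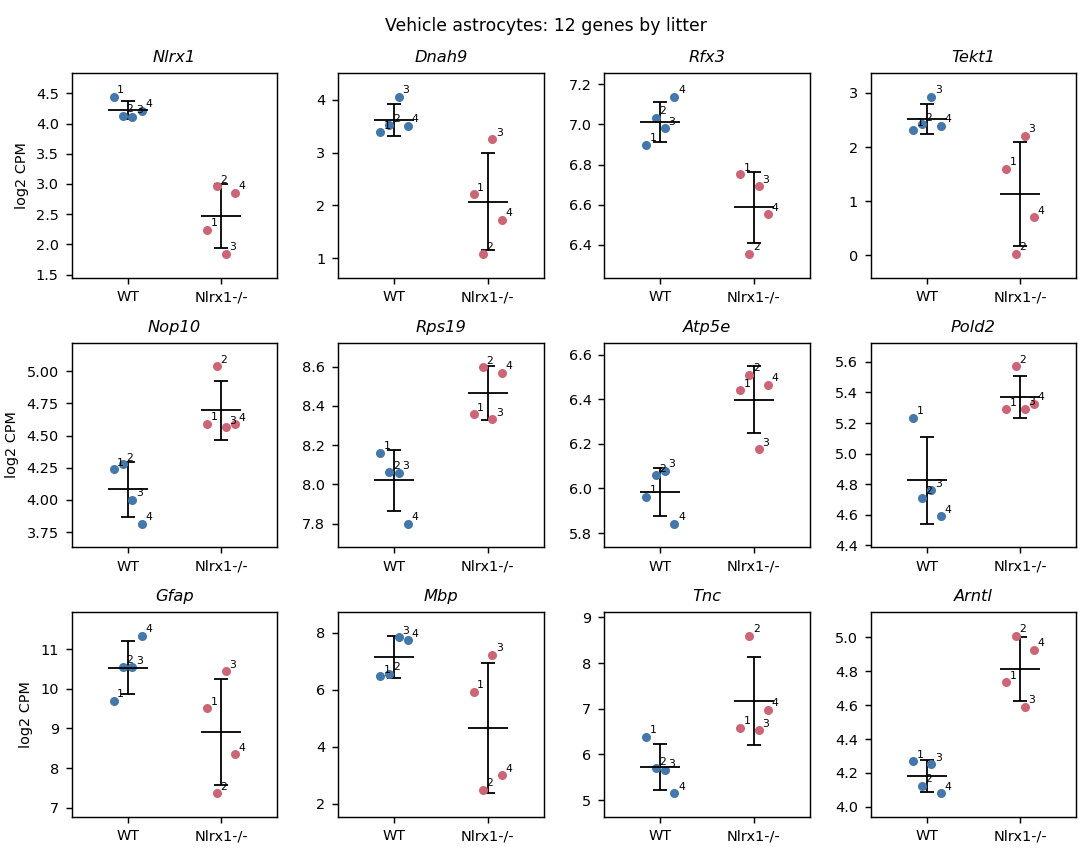
Log2 CPM of 12 genes in the 4 WT (blue) and 4 Nlrx1-/- (red) vehicle litters; points carry the litter number, long dashes are group means and whiskers the SD. Litters of the genotypes did not overlap except for Gfap and Mbp, where Nlrx1-/- litters 2 and 4 lie far below the others.

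Genes of ribosome production were higher in Nlrx1-/-. Ribosome biogenesis starts with RNA polymerase I transcription of ribosomal RNA, guides its modification with small nucleolar ribonucleoproteins, and assembles the subunits through the small subunit processome and the large subunit factors. Of 84 genes measured, 81 were higher, 47 at an unadjusted p under 0.05 (56.0%, against 10.6%) and 39 without overlap (46.4%, against 6.02%), with a median of 0.36. The median was 0.27 over 14 polymerase I genes, 0.50 over 8 box C/D and H/ACA genes, 0.28 over 29 processome genes and 0.36 over 33 large subunit genes. List levels were -0.13, -0.14, -0.13 and -0.24 in WT and -0.01, 0.53, 0.06 and 0.05 in Nlrx1-/-, without overlap and with litter 2 far above the others. Without litters 2 and 4 the median was 0.19, and 45 were higher without overlap.

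Nop10, a subunit of the H/ACA particle that makes pseudouridine, was at 4.24, 4.28, 4.00 and 3.82 log2 CPM in WT and at 4.59, 5.04, 4.57 and 4.59 in Nlrx1-/- (0.61 ± 0.14). All 4 Nlrx1-/- litters lay above the WT litters, with litter 2 the highest. The box C/D core gene Nop56 (0.51 ± 0.13), the nuclease gene Nob1 of small subunit maturation (0.41 ± 0.11), the large subunit factor Brix1 (0.31 ± 0.09) and Tcof1, which acts in polymerase I transcription (0.36 ± 0.12), were also without overlap.

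All 80 cytosolic ribosomal protein genes were higher in Nlrx1-/-, 68 at an unadjusted p under 0.05 (85%, against 10.6%) and 40 without overlap (50.0%, against 6.02%), with a median of 0.27. These genes are short, with a median transcript of 722 bases against 3085 over all genes, and many have pseudogene copies that can share reads. After the trend of each library on transcript length was removed, the median was 0.15, with 20 at an unadjusted p under 0.05 and 8 without overlap. Of the 16253 genes with a length, 1406 were then higher at an unadjusted p under 0.05 and 702 without overlap. Rps19 was at 8.16, 8.06, 8.06 and 7.80 log2 CPM in WT and at 8.36, 8.60, 8.33 and 8.57 in Nlrx1-/- (0.44 ± 0.10). Rps15 (0.38 ± 0.08) and Rplp2 (0.37 ± 0.08) separated the genotypes as well. Without litters 2 and 4 the median over the list was 0.14.

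Nuclear genes of the mitochondrion showed the same direction. Mitochondrial ribosomal proteins, which translate the respiratory subunits encoded in mitochondrial DNA, were higher for 75 of 78, with a median of 0.20. Of the 78, 35 were higher at an unadjusted p under 0.05 (44.9%, against 10.6%) and 24 without overlap (30.8%, against 6.02%). Mrpl38 was at 4.80, 4.78, 4.76 and 4.76 log2 CPM in WT and at 5.02, 5.26, 5.12 and 5.06 in Nlrx1-/- (0.34 ± 0.07), a small difference beside a WT SD of 0.02. Mrpl4 (0.22 ± 0.06), Mrpl37 (0.26 ± 0.07) and Mrps18a (0.24 ± 0.06) were likewise without overlap. Length-adjusted values gave a median of 0.11 and 11 genes higher without overlap, where 702 of the 16253 genes with a length were.

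Respiratory chain and ATP synthase subunits were higher for 73 of 75 genes, 48 at an unadjusted p under 0.05 (64.0%, against 10.6%) and 38 without overlap (50.7%, against 6.02%), with a median of 0.18. Complex I, which oxidises NADH, had a median of 0.16 over 36 genes, complex II, succinate dehydrogenase, 0.16 over 4, complex III 0.26 over 9, complex IV, cytochrome oxidase, 0.18 over 11, and complex V, ATP synthase, 0.20 over 15. List levels were -0.08, -0.07, -0.09 and -0.14 in WT and 0.07, 0.17, 0.05 and 0.08 in Nlrx1-/-. The litters did not overlap, and without litters 2 and 4 the median was 0.15, with 46 higher without overlap. The median transcript was 754 bases, and length adjustment left a median of 0.08. It left 15 higher and 1 lower at an unadjusted p under 0.05, and 10 higher and 1 lower without overlap. Over the 16253 genes with a length these counts were 1406 and 1700, and 702 and 697.

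Atp5e, the epsilon subunit of ATP synthase, was at 5.96, 6.06, 6.08 and 5.84 log2 CPM in WT and 6.44, 6.51, 6.18 and 6.47 in Nlrx1-/- (0.41 ± 0.09). Ndufa12 of complex I (0.33 ± 0.07), Sdhb of complex II (0.27 ± 0.07), the Rieske protein gene Uqcrfs1 of complex III (0.29 ± 0.06) and Cox6b1 of complex IV (0.21 ± 0.05) were also higher without overlap. Genes encoded in mitochondrial DNA were not analysed here. Of 19 NLRX1 partners and mitochondrial innate signalling genes measured, 10 were higher and 9 lower, with a median of 0.00. At an unadjusted p under 0.05, 4 were higher and 2 lower (21.1% and 10.5%, against 10.6% and 8.98%). Litters did not overlap for 2 higher and 1 lower (10.5% and 5.26%, against 6.02% and 3.43%). The members named next had the smallest p and were all higher. The complex III core gene Uqcrc2 (0.14 ± 0.04) and the mitochondrial elongation factor Tufm (0.17 ± 0.06), both known to bind NLRX1, were higher without overlap, Fasn, fatty acid synthase, overlapped at 0.75 ± 0.27, and the DNA-sensing adaptor Sting1 overlapped at 1.14 ± 0.45. The metabolic genes Idh1 (0.04 ± 0.06) and Glud1 (-0.32 ± 0.15) overlapped between genotypes.

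**Figure D3:**
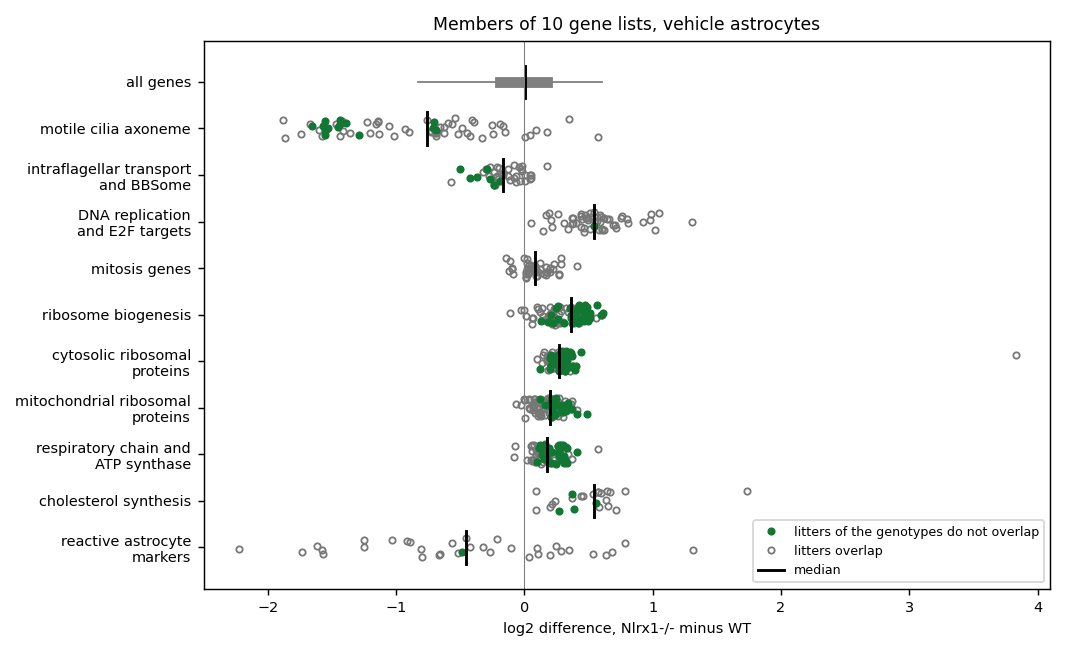
Log2 difference (Nlrx1-/- minus WT) of each measured member of 10 gene lists; filled points are genes whose litters did not overlap, black bars medians, and for all 16707 genes the thick and thin grey lines leave out the outer 25% and 5% on each side. Axoneme genes reach down to -1.88 around a median of -0.76, while the ribosome and respiratory lists are narrow around medians of 0.18 to 0.36; the point at 3.83 is Rps27.

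Transcript length moved with the difference across all genes, and its part in the results was not tested. In the fifth of genes with the shortest transcripts (3251 genes of 154 to 1711 bases) the median difference was 0.06, and 10.7% were higher and 1.85% lower without overlap. In the fifth with the longest (3250 genes of 5223 to 99852 bases) the median was -0.04, and 3.23% were higher and 5.78% lower. After length adjustment 702 genes were higher and 697 lower without overlap, against 1006 and 573 before. The axoneme median was -0.80 and the ribosome biogenesis median 0.29 after it.

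**Figure D4:**
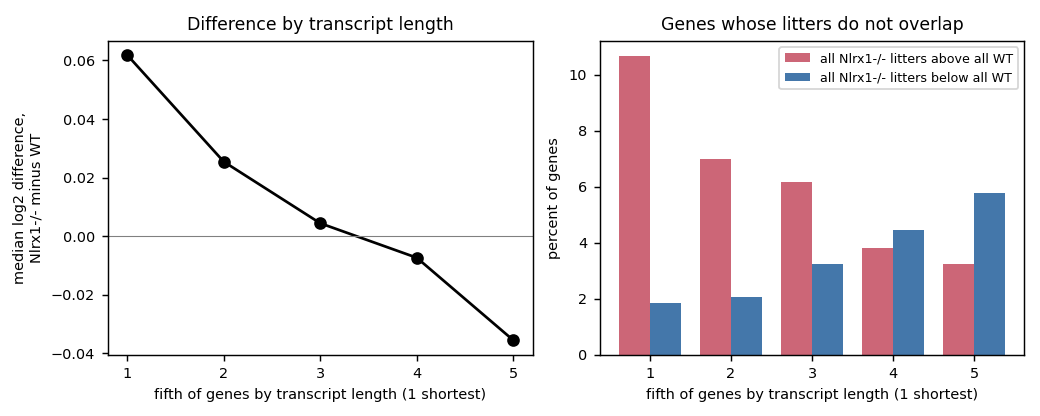
Genes in 5 groups of rising transcript length (group 1 the shortest). Left, the median log2 difference, Nlrx1-/- minus WT, runs from 0.06 to -0.04; right, bars give the percent of genes with all Nlrx1-/- litters above (red, 10.7% to 3.23%) or below (blue, 1.85% to 5.78%) all WT litters.

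Genes of S phase and of mitosis were described as separate lists, and the difference between the lists was not tested. E2F factors are known to switch on origin licensing, polymerase and nucleotide genes before S phase. All 55 genes of DNA replication and E2F targets were higher in Nlrx1-/-, with a median of 0.54, 25 at an unadjusted p under 0.05 (45.5%, against 10.6%), but litters did not overlap for 1 (1.82%, against 6.02%). WT litter 1 stood with the Nlrx1-/- litters, as the list levels were 0.39, -0.49, -0.26 and -0.74 in WT and 0.38, 0.54, 0.18 and 0.00 in Nlrx1-/-. The medians were 0.64 over 13 licensing genes, 0.51 over 25 fork and polymerase genes, 0.48 over 7 nucleotide genes and 0.53 over 10 regulators. Mitosis genes had a median of 0.08 over 45, with 0 at an unadjusted p under 0.05, and ran from 0.0012 without WT litter 4 to 0.17 without WT litter 1, where 11 had an unadjusted p under 0.05 and 13 were higher without overlap; Fbxo5, the inhibitor of the anaphase-promoting complex, was at 0.41 ± 0.19 and Cdk1 at 0.28 ± 0.14.

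E2F words (TTTCCCGC, TTTCGCGC, TTTGCCGC or TTTGGCGC, both strands) were found in 19 of 44 promoters of this list (43.2%) and in 552 of all 12847 (4.30%). Stretches from the 4 members with the smallest p among those with an upstream match are shown with the word in capitals (RefSeq, GRCm38.p6).
Orc1 (chr4:108579382-108579453, plus strand): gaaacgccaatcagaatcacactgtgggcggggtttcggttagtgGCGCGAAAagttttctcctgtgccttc
Cdc6 (chr11:98907968-98908066, plus strand): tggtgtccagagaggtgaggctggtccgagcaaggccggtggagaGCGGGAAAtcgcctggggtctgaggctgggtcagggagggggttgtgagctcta
Rfc3 (chr5:151651209-151651263, minus strand): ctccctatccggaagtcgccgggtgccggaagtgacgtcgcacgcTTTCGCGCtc
Mcm7 (chr5:138171995-138172093, minus strand): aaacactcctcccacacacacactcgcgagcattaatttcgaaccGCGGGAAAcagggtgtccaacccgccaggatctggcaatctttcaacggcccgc

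Pold2, a subunit of the replicative polymerase delta, was at 5.23, 4.71, 4.76 and 4.59 log2 CPM in WT and at 5.29, 5.57, 5.29 and 5.33 in Nlrx1-/- (0.55 ± 0.14), the gene of the list without overlap. Orc1, of the origin recognition complex, was at 1.92, 0.38, 1.27 and 0.66 against 1.83, 2.60, 1.80 and 2.07 (1.02 ± 0.35), overlapping through WT litter 1. Cdc6 (1.05 ± 0.38), Rfc3 (0.71 ± 0.26) and Mcm7 (0.38 ± 0.14), of licensing, clamp loading and the helicase, overlapped too. The same litter overlapped for thymidine kinase Tk1 (0.93 ± 0.30), the clamp loader Rfc4 (0.47 ± 0.15) and E2f2 (0.70 ± 0.23). Without WT litter 1 the median of the list was 0.76, with 48 higher without overlap, and without Nlrx1-/- litters 2 and 4 it was 0.56. The 25 genes at an unadjusted p under 0.05 were 52 without WT litter 1, 5, 11 and 6 without WT litters 2, 3 and 4, 11 and 4 without Nlrx1-/- litters 1 and 2, and 3 without Nlrx1-/- litters 2 and 4. Among inhibitors of the cycle, Cdkn2a, which encodes p16INK4a and p19ARF, was at 3.06, 2.97, 2.77 and 2.60 against 3.22, 3.79, 3.54 and 3.51 (0.67 ± 0.16). Cdkn2d (0.42 ± 0.12) did not overlap, Cdkn1a, which encodes p21, overlapped at 0.75 ± 0.21, and the retinoblastoma gene Rb1 was lower without overlap (-0.25 ± 0.09). Over the 13 inhibitors and D cyclins the median was 0.17, with 3 higher and 1 lower without overlap (23.1% and 7.69%, against 6.02% and 3.43%). The median was 0.15 over the 7 inhibitors and 0.18 over the 6 D cyclins and their partners. Of the 3 higher without overlap, 2 were inhibitors and 1 was among the D cyclins and partners.

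Cholesterol synthesis genes, which SREBP2 is known to drive together, were higher for 24 of 24, with a median of 0.55. Of these, 18 were at an unadjusted p under 0.05 (75%, against 10.6%) and 4 were without overlap (16.7%, against 6.02%). List levels were 0.08, -0.26, -0.33 and -0.52 in WT and 0.18, 0.74, -0.16 and 0.28 in Nlrx1-/-, so that WT litter 1 and Nlrx1-/- litter 3 overlapped, and the median without litters 2 and 4 was 0.28. Without WT litter 1, 20 genes were higher without overlap, and without Nlrx1-/- litter 3, 19 were. Cyp51, lanosterol demethylase, was at 7.76, 7.44, 7.30 and 7.16 log2 CPM against 7.95, 8.57, 7.69 and 8.0 (0.64 ± 0.19). Tm7sf2 (0.64 ± 0.17), Nsdhl (0.67 ± 0.18) and lanosterol synthase Lss (0.60 ± 0.18) were similar in size and overlapped by 1 WT litter.

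Genes of the astrocyte and reactive astrocyte lists were lower mainly in Nlrx1-/- litters 2 and 4. Gfap was at 9.70, 10.56, 10.55 and 11.34 log2 CPM in WT and at 9.51, 7.37, 10.45 and 8.35 in Nlrx1-/- (-1.62 ± 0.63). The genotypes overlapped through litter 3, while litter 1 lay just under the lowest WT litter. The water channel Aqp4 (-0.90 ± 0.34), the gap junction gene Gja1 (-0.94 ± 0.34), clusterin, Clu (-1.25 ± 0.44), and S100b (-1.06 ± 0.39) had the same overlap. Of 25 astrocyte markers 23 were lower, with a median of -0.32, 8 at an unadjusted p under 0.05 (32%, against 8.98%) and 0 without overlap. Without litters 2 and 4 the median was -0.14 and 0 were at an unadjusted p under 0.05. For 35 reactive markers the median was -0.45, with 14 lower and 2 higher at an unadjusted p under 0.05 and 1 lower without overlap, and -0.10 without those litters. The 14 are 40.0% of the list, against 8.98% of all genes, and the 1 is 2.86%, against 3.43%. Without either Nlrx1-/- litter 2 or litter 4, 6 were lower at an unadjusted p under 0.05, with 7 without WT litter 2, 8 without WT litter 3 or 4, and 19 without Nlrx1-/- litter 3.

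Within the reactive list, the 13 pan-reactive genes had a median of -0.56, the 11 genes of the LPS type 0.11 and the 11 of the ischemia type -0.45. Of the LPS type, 6 genes were higher and 5 lower. At an unadjusted p under 0.05, 2 of these were higher and 4 lower (18.2% and 36.4%, against 10.6% and 8.98%). The genes named next were all lower and do not show the higher members. Amigo2, an adhesion molecule, was at 2.60, 2.69, 2.73 and 2.58 log2 CPM in WT and at 2.15, 1.97, 2.30 and 2.25 in Nlrx1-/- (-0.48 ± 0.14), the gene of the list without overlap. The protease inhibitor Serpina3n (-1.57 ± 0.53), the galactosyltransferase Ggta1 (-1.58 ± 0.52), the complement inhibitor Serping1 (-0.92 ± 0.31) and Emp1 (-1.25 ± 0.40) overlapped.

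Markers of other cell types differed in the same litters. Myelin basic protein, Mbp, was at 6.47, 6.56, 7.84 and 7.73 log2 CPM in WT and at 5.93, 2.49, 7.22 and 3.0 in Nlrx1-/- (-2.49 ± 1.00). Litters 2 and 4 were far below the other 6, and Mag (-2.29 ± 0.97) and Cldn11 (-1.98 ± 0.75) had the same order. Transferrin, Trf, also made by oligodendrocytes, went the other way, at 6.02, 5.77, 5.23 and 5.31 against 6.66, 8.23, 5.87 and 7.58 (1.5 ± 0.46). The 14 myelin genes had a median of -1.19 with 0 without overlap, and -0.22 without litters 2 and 4. Their summed level ranged from 792 to 1180 Salmon reads, each library scaled to the same total, in WT and from 585 to 1028 in Nlrx1-/-.

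Oligodendrocyte precursor markers had a median of -0.30 over 16; Pdgfra, the PDGF receptor of these cells, was lower without overlap, at 6.96, 6.91, 7.07 and 6.96 log2 CPM against 6.65, 5.91, 6.69 and 6.23 (-0.60 ± 0.16). Olig1 was at 0.41 ± 0.15 and Neu4 at -1.36 ± 0.53, both with overlap. Endothelial and mural markers had a median of -0.78 over 8, with Kdr at -1.15 ± 0.37 and Pdgfrb at -1.25 ± 0.44, both overlapping. Meningeal and fibroblast markers had a median of -0.07 over 13, with Pdgfrl at -0.50 ± 0.19, Foxc1 at 0.46 ± 0.20 and Thbs2 lower without overlap (-0.73 ± 0.34); their level in Nlrx1-/- litter 3 was 1.11, the highest of all 8, and the list median was 0.38 without litters 2 and 4 and -0.63, with 5 lower without overlap, without litter 3. It was also above 0 without WT litter 4 (0.11), Nlrx1-/- litter 2 (0.13) or Nlrx1-/- litter 4 (0.21). Neuron markers had a median of 0.00 over 15, with the synaptic vesicle gene Syt1 higher without overlap (0.68 ± 0.22) and Reln at -0.69 ± 0.23. That median is the value of Sst, which had 0 reads in all 8 libraries, as did Ly6c1 of the endothelial list. The 4 microglial markers had a median of 0.09. The part of these cell types in the differences of the other lists was not tested.

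**Figure D5:**
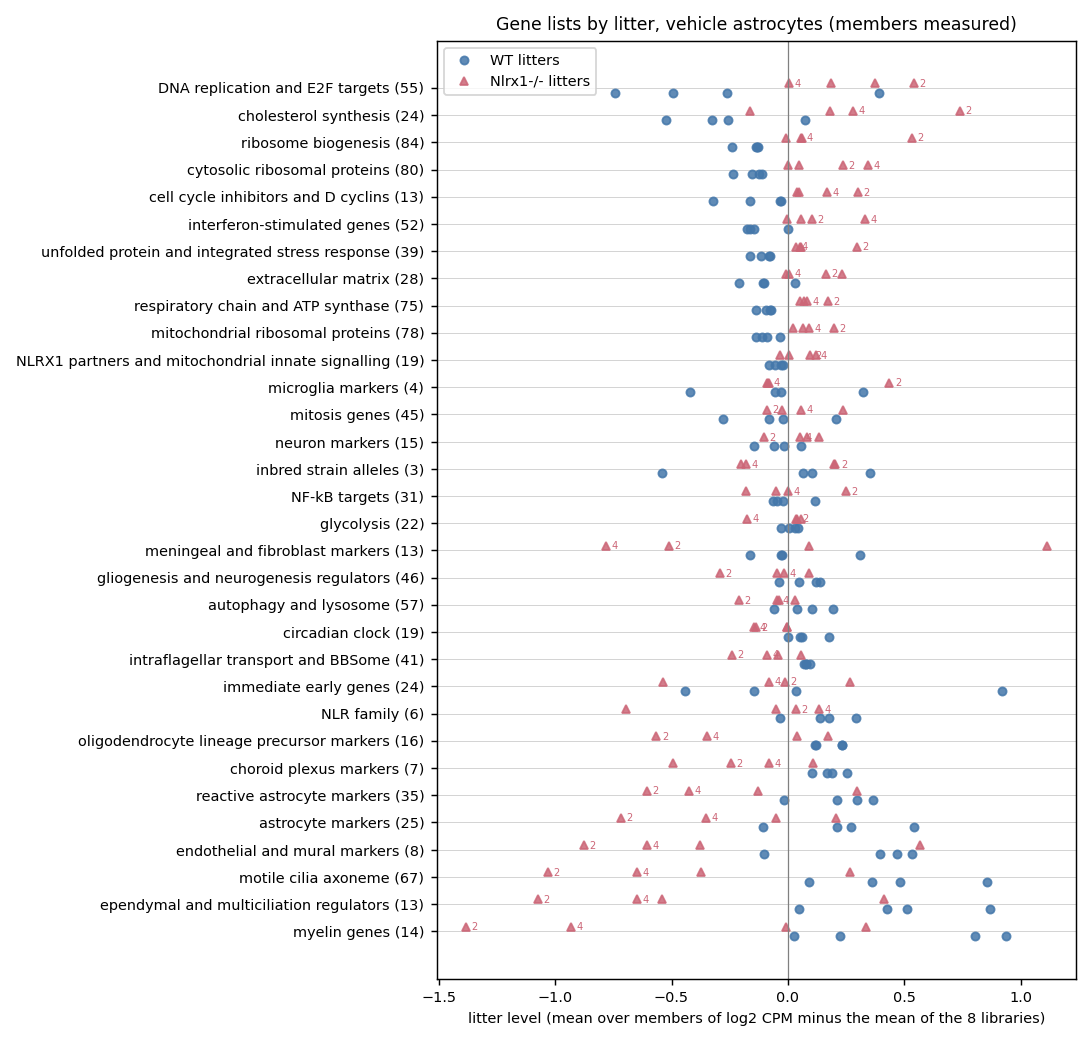
Level of 32 gene lists in each litter: the mean over members of log2 CPM minus the mean of the 8 libraries, with WT litters as circles and Nlrx1-/- litters as triangles (litters 2 and 4 numbered) and the number of genes measured in brackets. Axoneme genes run from 0.85 in WT litter 3 to -1.03 in Nlrx1-/- litter 2, and the respiratory list separates the genotypes within a range of -0.14 to 0.17.

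Medians of the NF-kB and interferon lists were -0.01 and 0.12. The 31 NF-kB targets had a median of -0.01 (0.13 without WT litter 1), with 2 higher and 4 lower at an unadjusted p under 0.05 and 1 without overlap in each direction. These shares (6.45% and 12.9%, against 10.6% and 8.98%, and 3.23% each, against 6.02% and 3.43%) were near those of all genes. The subunits and inhibitors had a median of -0.07, the 9 cytokines and chemokines 0.37 and the effectors 0.11. Of the 9, Ccl5, Ccl7, Cxcl1 and Cxcl2 lay at the floor of -4.13 log2 CPM in most litters. Levels of the 9 were -0.07, -0.08, -0.45 and -0.13 in WT and -0.23, 0.95, -0.07 and 0.09 in Nlrx1-/-, with overlap and with litter 2 the highest. Nfkb1, the p50 subunit, was at 5.31, 5.38, 5.28 and 5.18 log2 CPM in WT and 5.24, 5.57, 5.42 and 5.43 in Nlrx1-/- (0.12 ± 0.08). Nfkb2, the p52 subunit, was at 4.57, 4.54, 4.48 and 4.80 against 4.74, 5.09, 4.73 and 4.90 (0.27 ± 0.11), and both overlapped. The adaptor Traf1 (-1.46 ± 0.52), the adhesion molecule Vcam1 (-0.62 ± 0.20) and the cytokine Csf1 (-0.40 ± 0.15) also overlapped. Cebpd, an acute phase factor, was lower without overlap, at 4.71, 4.89, 4.71 and 4.78 against 4.05, 4.13, 4.68 and 4.05 (-0.54 ± 0.14), litter 3 again nearest to WT. Smad3 (0.24 ± 0.11) and the low-level ligand Bmp2 (-0.69 ± 0.45) overlapped.

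Of 52 interferon-stimulated genes, the median was 0.12. At an unadjusted p under 0.05, 10 were higher and 2 lower (19.2% and 3.85%, against 10.6% and 8.98%). Litters did not overlap for 3, all higher (5.77%, against 6.02%), near the share of all genes. The 24 antiviral effectors had a median of 0.40, with levels of -0.29, -0.04, -0.26 and -0.20 in WT and -0.0042, 0.24, 0.04 and 0.52 in Nlrx1-/- that did not overlap. The median was 0.04 over 12 signalling genes and 0.09 over 16 GTPase and antigen presentation genes. Isg15, a ubiquitin-like modifier, was at -0.01, 0.18, 0.34 and 0.17 log2 CPM in WT and at 0.86, 2.34, 0.70 and 1.52 in Nlrx1-/- (1.19 ± 0.36). The guanylate-binding protein gene Gbp3 (0.83 ± 0.27) was also without overlap, Irf7 (0.81 ± 0.32) and H2-K1 (0.64 ± 0.21) overlapped, and Gbp2 was lower with overlap (-0.89 ± 0.32). Among other NLR family members, 6 of 14 were measured, and Nod1 was lower without overlap, at 3.27, 3.13, 3.09 and 3.28 against 3.05, 2.71, 2.41 and 2.69 (-0.48 ± 0.15).

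Autophagy and lysosome genes were lower for 48 of 57, with a median of -0.13, 12 lower and 2 higher at an unadjusted p under 0.05, and 5 lower and 1 higher without overlap. The 12 are 21.1% of the list, against 8.98% of all genes, and the 5 are 8.77%, against 3.43%. Leaving out 1 litter gave between 1 (without WT litter 4) and 22 (without WT litter 1) lower at an unadjusted p under 0.05, with 2 and 3 without WT litters 2 and 3, 7 without Nlrx1-/- litter 1 and 4 without either of Nlrx1-/- litters 2 and 4. Optn, an autophagy receptor, was at 4.91, 5.00, 4.93 and 5.10 log2 CPM against 4.77, 4.33, 4.85 and 4.52 (-0.37 ± 0.12). The kinase gene Ulk1 (-0.28 ± 0.10) and the receptor Nbr1 (-0.18 ± 0.06) did not overlap, while Lamp2 (-0.35 ± 0.14) and the protease gene Atg4d (0.36 ± 0.12) did. Stress response genes had a median of 0.12 over 39, with 0.08 over 19 genes of endoplasmic reticulum stress and 0.29 over 20 targets of ATF4. Of the 39, 26 were higher and 13 lower. At an unadjusted p under 0.05, 11 were higher and 3 lower (28.2% and 7.69%, against 10.6% and 8.98%). Litters did not overlap for 4 higher and 1 lower (10.3% and 2.56%, against 6.02% and 3.43%). The genes named next were all higher. The serine pathway enzyme Shmt2 (0.39 ± 0.11) and the amino acid transporter Slc7a5 (0.61 ± 0.22) were higher without overlap, and Mthfd2 (1.39 ± 0.47) and Sesn2 (0.36 ± 0.12) overlapped.

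The circadian clock gene Arntl, which encodes BMAL1, had the smallest p after Nlrx1 among the genes named here. It was at 4.27, 4.12, 4.25 and 4.08 log2 CPM in WT and at 4.73, 5.01, 4.59 and 4.93 in Nlrx1-/- (0.63 ± 0.11). Its known repressor Nr1d2 (-0.50 ± 0.14), Per3 (-0.48 ± 0.14) and Tef (-0.31 ± 0.11) were lower without overlap, 3 of the 19 clock genes measured (15.8%, against 3.43%). Arntl was the gene higher without overlap (5.26%, against 6.02%). The list median was -0.18 and, without litters 2 and 4, -0.06, with 2 higher and 3 lower without overlap. The hour of lysis is not given in the sources used here, and its part in these values was not tested. Immediate early genes had a median of -0.23 over 24, with Jund at -0.28 ± 0.12 and Fos at -0.65 ± 0.33, both overlapping, and without WT litter 1 the median was 0.01.

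Among regulators of gliogenesis and neurogenesis the median was -0.14 over 46, with 10 lower and 3 higher at an unadjusted p under 0.05 (21.7% and 6.52%, against 8.98% and 10.6%). The median was -0.047 without Nlrx1-/- litter 2, -0.078 without WT litter 4 and -0.036 without Nlrx1-/- litters 2 and 4. Zbtb20, a factor of astrocyte development, was at 8.99, 9.10, 9.20 and 9.38 log2 CPM in WT and at 8.76, 8.02, 8.74 and 8.45 in Nlrx1-/- (-0.68 ± 0.16), and Notch2 was lower without overlap as well (-0.24 ± 0.07). Sox11, a factor of immature neural cells, was higher without overlap (0.46 ± 0.13), and Bmp7 overlapped (1.20 ± 0.34). Matrix genes had a median of 0.33 over 28, 6 higher without overlap (21.4%, against 6.02%); Lamb1 was at 0.89 ± 0.21, Col4a1 at 0.42 ± 0.10 and Thbs4 at 1.04 ± 0.30, all without overlap, and the protease inhibitor Timp2 was lower with overlap (-0.63 ± 0.18). Glycolysis genes had a median of -0.09 over 22, with Eno1 (0.35 ± 0.10) and Ldha (0.57 ± 0.17) higher and the regulatory enzyme Pfkfb3 lower (-0.88 ± 0.23), all without overlap.

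The genes with the largest differences among those without overlap and at a mean of at least 1 log2 CPM were then taken in each direction. On the higher side, Angpt2, the TIE2 ligand angiopoietin-2, was at 1.02, 0.86, 0.31 and 0.10 log2 CPM in WT and 1.68, 3.82, 1.30 and 2.18 in Nlrx1-/- (1.67 ± 0.52, 3.18-fold). Tnc, the matrix glycoprotein tenascin-C, was at 6.39, 5.70, 5.65 and 5.15 against 6.59, 8.59, 6.53 and 6.98 (1.45 ± 0.46, 2.73-fold). Litter 2 was the highest for both. The others were Adamts17, a secreted metalloprotease (1.5 ± 0.50), Kcnv1, a potassium channel modifier (1.39 ± 0.38), Camk2b, a calmodulin kinase (1.30 ± 0.33), Tmem158 (1.29 ± 0.29), and Raet1e, an NKG2D ligand (1.22 ± 0.36). The Src-family kinase Lyn (1.12 ± 0.27), the AMPA receptor subunit Gria1 (1.09 ± 0.29), Tent5a (1.07 ± 0.33), the latrophilin Adgrl2 (1.07 ± 0.34) and Olfml3 (1.05 ± 0.27).

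On the lower side, 6 of the 12 were on the axoneme list. Beside these and Nlrx1 stood Ak9, an adenylate kinase, at 1.7, 1.91, 2.54 and 2.56 log2 CPM in WT and 1.07, -0.17, 1.45 and -0.17 in Nlrx1-/- (-1.63 ± 0.42). The kinase gene Map3k19 was at 4.45, 4.95, 4.85 and 4.86 against 3.88, 1.82, 4.18 and 2.82 (-1.60 ± 0.46). The palmitoyltransferase Zdhhc23 (-1.58 ± 0.43), Meig1 (-1.50 ± 0.36) and the kinesin Kif27 (-1.48 ± 0.38) were the others. In these 5 genes litter 2 or 4 was the lowest.

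Genes on either side of Nlrx1 were described as well, since a knockout allele can be bred together with its flanking chromosome. Within 10 Mb of its start, 153 genes had a median difference of 0.03, with 12 higher and 3 lower without overlap (7.84% and 1.96%). The 714 genes of the rest of chromosome 9 had a median of -0.01, with 38 higher and 28 lower (5.32% and 3.92%). Over all genes these shares were 6.02% and 3.43%. Acat1 was at 7.38, 7.36, 7.31 and 7.37 log2 CPM in WT and 7.56, 7.60, 7.50 and 7.50 in Nlrx1-/- (0.19 ± 0.05). Ubash3b (0.63 ± 0.17) and Sdhd (0.25 ± 0.08) were higher without overlap, and Nrgn overlapped (1.22 ± 0.32). The inbred strain marker Nnt, whose deletion is known from C57BL/6J, was at 5.31, 5.46, 5.54 and 5.36 in WT and 5.36, 5.43, 5.49 and 5.19 in Nlrx1-/- (-0.05 ± 0.08), and 3 such genes had a median of -0.01. The WT of that strain still had Nnt reads, so gene-level values do not show which allele was present. Strain background was not tested.

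The same litters after LPS and IFNγ are set beside these values as a second reading of the same litters, not as independent samples. Nlrx1 differed there by -2.22 log2, with an adjusted p of 0.0480 by limma. The axoneme list had a median of -0.94 after stimulation against -0.76 in vehicle, intraflagellar transport -0.19 against -0.17, ribosome biogenesis 0.51 against 0.36, matrix genes 0.32 against 0.33, and myelin genes -1.68 against -1.19. Respiratory subunits had -0.03 against 0.18, cytosolic ribosomal proteins 0.13 against 0.27, DNA replication genes -0.08 against 0.54, cholesterol synthesis 0.08 against 0.55 and reactive markers 0.00 against -0.45. Arntl was at 0.69 against 0.63 and Cebpd at 0.51 against -0.54. By limma on the within-litter difference, no gene differed between genotypes in its response at an adjusted p under 0.05. At an unadjusted p under 0.05, 890 genes were higher and 1364 lower. The paper tested this interaction with DESeq2 and did call genes in both directions at that adjusted threshold, so the calls depend on the method. The differences between states given here are values and not calls.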

How the data were processed

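RNA of astrocyte cultures was sequenced by the study, and 8 vehicle libraries of the 16 were compared. The authors quantified reads with Salmon 1.7.0 against a decoy-aware GRCm39 transcriptome, summed them to genes with tximport, filtered low counts and normalized with TMM in limma 3.58.1. The deposited log2 CPM values were the base of the fits, the deposited CPM signal gave back counts (99.2% to 99.8% of each library's reads), and the deposited estimated counts per transcript gave depth and marker sums. Of 129698 transcripts, 106430 were paired with a symbol through RefSeq.

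Genotypes were compared by limma 3.58.1 in R 4.3.3 (lmFit, eBayes with trend) over 16707 genes and p-values were adjusted by Benjamini-Hochberg, with calls made under 0.05. Alternatives were edgeR 4.0.16, DESeq2 1.42.0, other scalings, filters and pseudocounts, all 16 libraries, array weights, a replicate block and each litter left out. Length adjustment (97.3% of genes had a length) and leaving out Nlrx1-/- litters 2 and 4 together were chosen after seeing the data. The genes and lists were chosen with earlier results of these data known, so no list is independent evidence of its direction. Named genes were Nlrx1, the 12 largest differences each way among genes whose litters did not overlap with a mean of at least 1 log2 CPM and a non-provisional symbol, up to 4 members per list by smallest p with 1 per role at a mean of at least 0 log2 CPM, up to 4 near Nlrx1, and the genes the study names. Slc1a3, Aldh1l1, Xist, Rps27, Rps27rt, Gdf15 and the genes whose promoters are printed were chosen after their values were seen. The 34 lists held 1042 measured genes, 36 matched through an older symbol. Positions come from GENCODE M39 and promoters from RefSeq (GRCm38.p6). Scripts were tested on simulated data. Intervals are SE of the fit, and p-values measure the spread between litters.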

Additional observations from a re-analysis of the deposited data

Results flagged for a closer look

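Each group of 4 litters was searched for a litter far from the other 3 (Dixon's test), for 392 groups of named genes and list levels. It marked 31 groups (7.91%), where chance alone marks about 1 in 20. Nlrx1-/- litter 2 was the litter in 12 of them, WT litter 4 in 8, WT litter 1 and Nlrx1-/- litter 3 in 4 each, Nlrx1-/- litter 4 in 2 and WT litter 3 in 1.

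Nlrx1-/- litter 2 was the highest of its group for Raet1e (2.91 log2 CPM), Pold2 (5.57), Nop10 (5.04), Ndufa12 (6.09), Shmt2 (7.23) and Eno1 (10.04), and the lowest for Thbs2 (0.107), Rb1 (5.91) and Tef (7.12). It was also the highest for the levels of microglia markers (0.436), ribosome biogenesis (0.531) and stress response genes (0.296). WT litter 4 was the lowest of its group for the Y-linked genes Ddx3y (-1.21), Uty (-1.87), Kdm5d (-1.37) and Eif2s3y (-2.26), for the level of sex-linked genes (-1.67) and for that of ribosome biogenesis (-0.24), and the highest for Thbs2 (2.37) and Bbs4 (4.49).

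WT litter 1 stood apart for Lyn (3.82), Eno1 (9.62) and Nrgn (3.81), all above the other WT litters, and for Pdgfrb (2.38), below them. Nlrx1-/- litter 3 was the highest of its group for Serping1 (2.66), Cebpd (4.68) and Cfap161 (0.792) and the lowest for Rps27rt (6.35). WT litter 3 was the lowest for Tufm (6.47), and Nlrx1-/- litter 4 for Xist (2.27) and for the level of glycolysis genes (-0.176). The part of these litters in the genotype differences was tested only by leaving litters out.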

How the results depend on the processing

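At an adjusted p under 0.05, DESeq2 called 287 genes higher and 257 lower, and 79 of 163 named genes, while fits of all 16 libraries, with no litter term or with litter as a random block, called 1 lower. Nlrx1 was past the threshold in those 3 fits (-1.70, -1.75 and -1.75). Leaving out 1 litter gave 1039 to 2091 genes higher and 796 to 2258 lower at an unadjusted p under 0.05, and 1119 to 2186 and 645 to 1875 without overlap. The latter were 2186 and 1685 without WT litter 1, 1812 and 1875 without Nlrx1-/- litter 3, 1468 and 888 without Nlrx1-/- litter 1, and 1513 and 921 without Nlrx1-/- litter 4; with fewer litters, groups separate more easily. Without Nlrx1-/- litters 2 and 4 together, 786 and 543 had an unadjusted p under 0.05 and 1819 and 1177 were without overlap. List medians then moved to -0.037 (oligodendrocyte precursors), -0.22 (myelin), 0.13 (neuron), -0.22 (endothelial), -0.18 (choroid plexus), -0.082 (intraflagellar transport), 0.14 (cytosolic ribosomal proteins), -0.10 (reactive), 0.016 (glycolysis), 0.17 (matrix), -0.056 (clock) and -4.57 (sex-linked). Length adjustment moved cytosolic ribosomal proteins to 0.15, mitochondrial ones to 0.11 and the respiratory chain to 0.081. The choroid plexus median was -0.17 on log2(CPM + 1) and -0.36 to -0.058 with 1 litter left out, and the NF-kB median was -0.087 to 0.13. In all, 410 of 431 medians in other settings moved by less than 1 SD of the litters. These were medians of the lists and of the genes near Nlrx1, with main values not counted. Nnt ran from -0.093 to 0.0067 with 1 litter left out, above 0 without Nlrx1-/- litter 4 (0.0059 without litters 2 and 4), and Rps27rt from -0.39 to 0.0424, above 0 without Nlrx1-/- litter 3. Xist ran from -2.39 to 0.38, above 0 without Nlrx1-/- litter 4 (0.41 without litters 2 and 4). The cause of these moves was not tested. The first component's exact permutation p ran from 0.0571 to 0.171. Litter numbers shared by the genotypes did not pair (correlations -0.0214, 0.00336, 0.18 and -0.0341), and with a replicate block 0 genes passed, 1783 were higher and 1494 lower at an unadjusted p under 0.05, and Nlrx1 differed by -1.75 (limma adjusted p 0.238). Array weights gave a smallest adjusted p of 0.0537.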

Other observations

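Rps27 and its near-identical copy Rps27rt shared reads unevenly. In order of litter, Salmon gave Rps27 26, 19, 91 and 46 reads in WT and 27, 52, 3393 and 3314 reads in the knockout. Rps27rt had 5404, 6008, 8149 and 7026 against 6138, 7095, 2843 and 7466, so the 3.83 log2 difference of Rps27 rests on Nlrx1-/- litters 3 and 4 and its split of reads is uncertain. Without Rps27 the ribosomal protein median stayed at 0.27, with 40 of 79 genes higher without overlap.

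Gdf15, a stress cytokine and target of ATF4, was at -1.36, -0.75, -0.42 and -1.74 log2 CPM in WT and at 0.13, 1.67, 0.57 and 1.34 in Nlrx1-/- (2.00 ± 0.43). All 4 Nlrx1-/- litters lay above the WT litters at a low level, and the limma adjusted p was 0.219. The 20 ATF4 targets had a median of 0.29 in vehicle and 1.18 after LPS and IFNγ in the same litters.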
